A study of Mus musculus with 27 samples.

Results

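The genes described here are 10 genes of tumour necrosis factor (TNF) and the NF-kB feedback loop, chosen by gene symbol: Tnf, Tnfaip3, Nfkbia, Nfkbie, Nfkbiz, Nfkb1, Nfkb2, Rel, Relb and Icam1. All 10 were found among the 9996 genes of the deposited expression table. They were followed in 27 RNA-seq libraries of macrophages and neutrophils that had been sorted by flow cytometry from mammary tumours. All mice were of the K14cre;Cdh1F/F;Trp53F/F line, which develops mammary tumours on its own: Cre recombinase driven by the keratin promoter K14 deletes the floxed genes of E-cadherin (Cdh1) and p53 (Trp53) in epithelial cells. The macrophage libraries came from mice given cisplatin with anti-CSF-1R (2 libraries, called the combination), anti-CSF-1R alone (2 libraries), cisplatin with control antibody (4 libraries) or control antibody alone (4 libraries). The neutrophil libraries came from the combination (4 libraries), anti-CSF-1R (4 libraries), cisplatin with control antibody (3 libraries) and control antibody (4 libraries). CSF-1R is the receptor through which CSF-1 keeps many macrophages alive, and cisplatin is a drug that cross-links DNA. Cisplatin was injected 2 times and tumours were taken 1 day after the last injection, whereas tumours without cisplatin were taken at 100 mm2, so cisplatin and the time of killing cannot be told apart. Neither ages nor a link between libraries and single mice could be read in the labels. The p-values therefore cover only the variation among libraries, part of which may be technical.

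NF-kB is a family of transcription factors that inhibitory IkB proteins hold in the cytoplasm. TNF, interleukin-1 and microbial products activate the IkB kinase, IkB proteins are degraded, and the freed factors enter the nucleus. Among the genes they switch on are their own inhibitors and subunits and Tnf itself, so that the response is both fed and cut short by its targets. In macrophages and neutrophils the pathway drives cytokines, chemokines, adhesion molecules and survival genes.

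The promoters of these genes are known for binding sites of NF-kB, and the bases just before the transcription start are shown to let that be seen. RefSeq promoters on GRCm38.p6 were at hand for 7 of the 10 genes, in 10 windows of 250 bases before a start site. Nfkb1, Nfkbiz and Relb had none in the table used. In both strands of each window 2 motifs were searched: GGG, any 3 bases and TTCC, and GGAA, any base and TTCC; they can overlap each other. Printed 5′ to 3′ on the gene's strand, with matches to either motif in capitals, the whole windows of Tnf (chr17:35202008-35202257, minus strand), Nfkbia (chr12:55492648-55492897, minus strand) and Icam1 (chr9:21015690-21015939, plus strand) were as follows. A ligand, an inhibitor and an adhesion molecule are shown whole, as examples of the kinds of gene among the 10. The inhibitor, Nfkbia, was picked for its call in macrophages with anti-CSF-1R, which rests on 1 usable anti-CSF-1R library.
Tnf: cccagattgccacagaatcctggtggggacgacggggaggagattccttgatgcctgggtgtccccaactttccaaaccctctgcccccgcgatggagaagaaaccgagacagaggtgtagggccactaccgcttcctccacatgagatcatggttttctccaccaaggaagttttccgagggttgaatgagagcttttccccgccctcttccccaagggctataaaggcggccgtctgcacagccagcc
Nfkbia: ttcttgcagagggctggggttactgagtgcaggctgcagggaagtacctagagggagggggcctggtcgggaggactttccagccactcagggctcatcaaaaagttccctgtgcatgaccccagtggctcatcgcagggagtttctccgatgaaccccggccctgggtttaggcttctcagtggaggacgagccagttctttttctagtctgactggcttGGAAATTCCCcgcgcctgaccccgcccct
Icam1: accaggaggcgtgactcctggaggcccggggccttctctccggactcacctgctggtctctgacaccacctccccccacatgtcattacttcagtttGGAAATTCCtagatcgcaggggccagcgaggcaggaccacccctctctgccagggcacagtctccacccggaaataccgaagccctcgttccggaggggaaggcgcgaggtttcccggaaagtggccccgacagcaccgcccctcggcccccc

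Nfkb2 and Tnfaip3 had windows at several start sites, and the matches in their other windows are not printed. For the other genes with a match, a stretch of 30 bases is enough to show the motif: Tnfaip3 (chr10:19015411-19015440, minus strand), Nfkbie (chr17:45555584-45555613, plus strand), Nfkb2 (chr19:46305695-46305724, plus strand) and Rel (chr11:23771041-23771070, minus strand).
Tnfaip3: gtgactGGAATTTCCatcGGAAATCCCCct
Nfkbie: gcagcaaacaGGGGGATTCCggaggggcgg
Nfkb2: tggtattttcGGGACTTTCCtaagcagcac
Rel: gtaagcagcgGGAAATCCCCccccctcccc

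A match to either motif was present in 9 of the 10 windows and in 6 of the 7 genes. Among all 32851 RefSeq windows of that length, 5.14% held a match (the first motif in 4.65%, the second in 0.813%). The run of capitals in Nfkbia holds both motifs, which overlap there, and Tnfaip3 holds a match to each, side by side. The Tnf window held no match. A match is a run of letters, not a measured binding site.

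The values are normalised read counts, the authors' counts per gene divided by a size factor per library. Many values in the deposited table had lost their decimal point. The point was put back at the place most probable from whole reads and the spread of the group, where its probability was at least 0.95. Whole reads alone allowed several places for 60 values of the 10 genes. Of 270 values of the 10 genes, 10 stayed uncertain and were left out (7 in macrophages and 3 in neutrophils), and the 260 used rested on 19 to 16903 reads each. The reads recovered per library ran between 1296883 and 7490554 in macrophages and between 997905 and 3281098 in neutrophils. Each sorted cell type carried its own markers. The summed level of 11 macrophage markers was 17481 to 36951 in macrophage libraries and 2269 to 5421 in neutrophil libraries. The 11 neutrophil markers in the table summed to 196 to 1567 in macrophage libraries and 22133 to 101738 in neutrophil libraries. A macrophage library from anti-CSF-1R, replicate 2, stood apart. Its 8 mast cell markers summed to 8458 (Tpsab1 4467, Mcpt4 1319, Cpa3 1280.4, Tpsb2 728), against 199 in the other anti-CSF-1R library and 14.2 to 73.6 in the control libraries. These sums take uncertain values at their most probable place. In replicate 1 these were Tpsab1 (169), Mcpt4 (16.9), Il1rl1 (5.08) and Kit (3.39), so its sum of 199 is itself uncertain. The comparisons of the 10 genes that use it are also given without it. Replicate numbers follow the order of deposition and pair nothing.

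Macrophages had lower normalised counts of these genes than neutrophils under every treatment. Tests were limma on log2(value + 1) with Benjamini-Hochberg adjustment over all genes, and a gene was called at an adjusted p under 0.05. Under the combination 9 of the 10 genes were called lower in macrophages, where 23.8% of all genes tested were. All 10 were called lower under anti-CSF-1R (21.3% of all genes), cisplatin (27.4%) and control antibody (24.7%). Macrophages lay below neutrophils without overlap for all 10 genes under the combination (30.6% of all genes did), all 10 under anti-CSF-1R (28%), 9 under cisplatin (28%) and all 10 in control (23.8%). The median log2 fold change of the 10 genes, macrophages over neutrophils, was -2.65 under the combination, -2.36 under anti-CSF-1R, -2.93 under cisplatin and -2.56 in control, beside 0.12, 0.10, 0.13 and 0.12 over all genes. In these sorted bulk samples, fewer cells that express a gene and less RNA in each cell cannot be told apart.

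Tnf, the cytokine at the head of the loop, was among the genes with the widest gap. Its normalised counts in control macrophages were 58.2, 39.7, 66.8 and 122, against 1422, 1113, 979 and 1844 in control neutrophils. All macrophage libraries of the study lay below all neutrophil libraries. The fold change in control was -4.28 ± 0.36 (log2, SE; limma adjusted p = 4.45e-10), which is 19.4 times lower in macrophages.

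Among the inhibitors, Nfkbiz, which encodes a nuclear IkB protein that helps switch on late targets, differed most. It had 111, 95.7, 140.5 and 317 normalised counts in control macrophages, against 3917, 3239, 2257 and 2869.6 in control neutrophils. The control groups were far apart, and the log2 fold change was -4.34 ± 0.40 (limma adjusted p = 2.39e-09). Nfkbia, which encodes the classical inhibitor IkB alpha and lies at chr12:55489410-55492647, had 102, 86.0, 106 and 175 in control macrophages, against 1361, 1265, 1210.0 and 1574 in control neutrophils. Its log2 fold change was -3.56 ± 0.30 (limma adjusted p = 1.40e-09). Tnfaip3 encodes a ubiquitin-editing enzyme that shuts off the signal above the IkB kinase. It had 419.9, 672 and 952 in the 3 usable control macrophage libraries, against 6845, 4718, 3277 and 5269 in control neutrophils (log2 fold change -2.91 ± 0.41, limma adjusted p = 3.19e-06). Nfkbie, which encodes a further cytoplasmic IkB, had 142, 118, 175 and 209 in control macrophages, against 717, 754, 722 and 744 in control neutrophils. The 4 neutrophil values of Nfkbie lay close together, and its log2 fold change was -2.21 ± 0.28 (limma adjusted p = 4.02e-07).

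Icam1, the adhesion molecule that leukocyte integrins bind, had 99.4, 123, 143 and 202 normalised counts in control macrophages, against 1769.9, 1021, 2059 and 4184 in control neutrophils. Neutrophil values spread widely, yet the cell types did not overlap in any of the 27 libraries. The log2 fold change was -3.85 ± 0.43 (limma adjusted p = 5.87e-08).

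The subunits showed the smaller gaps. Nfkb1, whose precursor is processed to a DNA-binding subunit, had 189.6, 174, 278 and 278 in control macrophages, against 514, 534, 588 and 655 in control neutrophils (log2 fold change -1.34 ± 0.26, limma adjusted p = 0.000157). Nfkb2, which is processed in the non-canonical branch, had 57.2 to 74.4 in control macrophages, against 192 to 278 in control neutrophils (-1.75 ± 0.25, limma adjusted p = 2.48e-06). Rel, a subunit with its own activation domain that is prominent in blood cells, had 221 and 417 in the 2 usable control macrophage libraries, against 764, 807, 646 and 764 in control neutrophils (-1.29 ± 0.32, limma adjusted p = 0.00224). Relb, the usual partner of processed Nfkb2, had 14.2 to 20.6 in control macrophages, against 50.4, 54.7 and 95.3 in the 3 usable control neutrophil libraries (-1.80 ± 0.34, limma adjusted p = 0.000145).

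**Figure D1:**
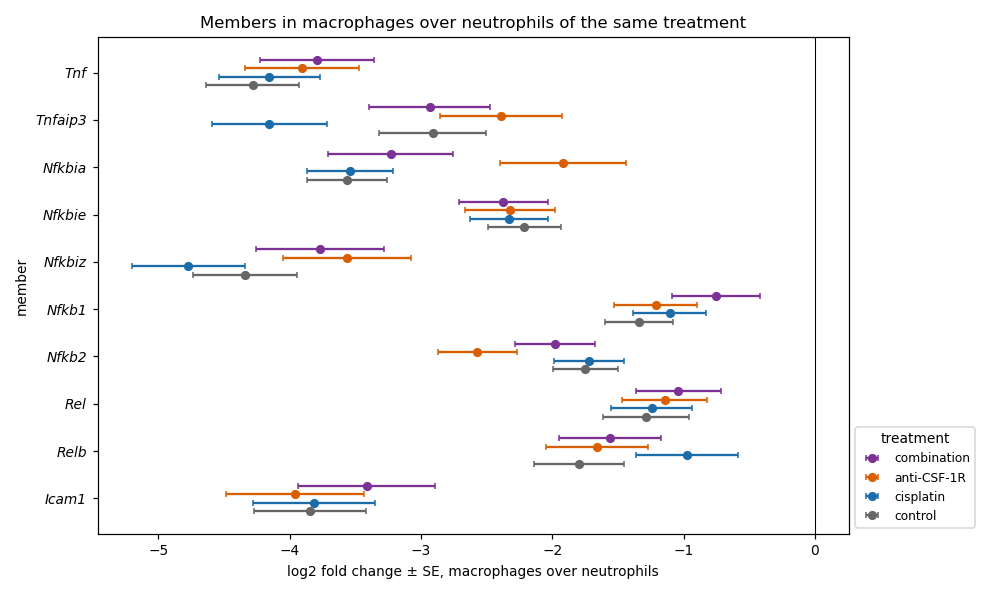
Fitted log2 fold change of each gene in macrophages over neutrophils of the same treatment, with SE bars and a colour per treatment; the vertical line marks 0. All 40 points lie left of 0, with Nfkbiz under cisplatin farthest at -4.77 and Nfkb1 under the combination nearest at -0.75.

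Over all libraries of both cell types together, the ranges were apart for 7 genes (Tnf, Tnfaip3, Nfkbia, Nfkbie, Nfkbiz, Nfkb2 and Icam1) and overlapped for Nfkb1, Rel and Relb. The weakest differences were Nfkb1 under the combination (-0.75 ± 0.33, limma adjusted p = 0.0662) and Relb under cisplatin (-0.97 ± 0.39, limma adjusted p = 0.0358, and 0.688 without cisplatin neutrophil replicate 1). Rel lost its call in all 4 treatments under quantile normalisation (log2 fold changes -0.10 to -0.75), and Nfkb1 lost it under anti-CSF-1R (-0.68) and cisplatin (-0.60). Leaving out control macrophage replicate 2 took the call of Rel in control (adjusted p = 0.0938), leaving out anti-CSF-1R macrophage replicate 1 took those of Nfkb1 and Rel under anti-CSF-1R (0.159 and 0.168), and leaving out combination macrophage replicate 1 took those of Rel and Relb under the combination (0.102 and 0.0623; all limma). Relb under cisplatin was also lost without cisplatin macrophage replicate 3 (limma adjusted p = 0.0995), with median centring (0.0532) and with weights per library (0.0632). Nfkb1 under the combination was called in turn with the most probable place for every value, with limma-voom and with weights per library (adjusted p = 0.0198, 0.0222 and 0.0232). Without the library that held the mast cell markers, all 9 genes with a value were still called under anti-CSF-1R. The neutrophil markers in macrophage libraries reached at most 7.08% of the lowest neutrophil library. In the other direction the share was larger: macrophage markers reached 5421 in a neutrophil library, against 17481 in the lowest macrophage library.

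**Figure D2:**
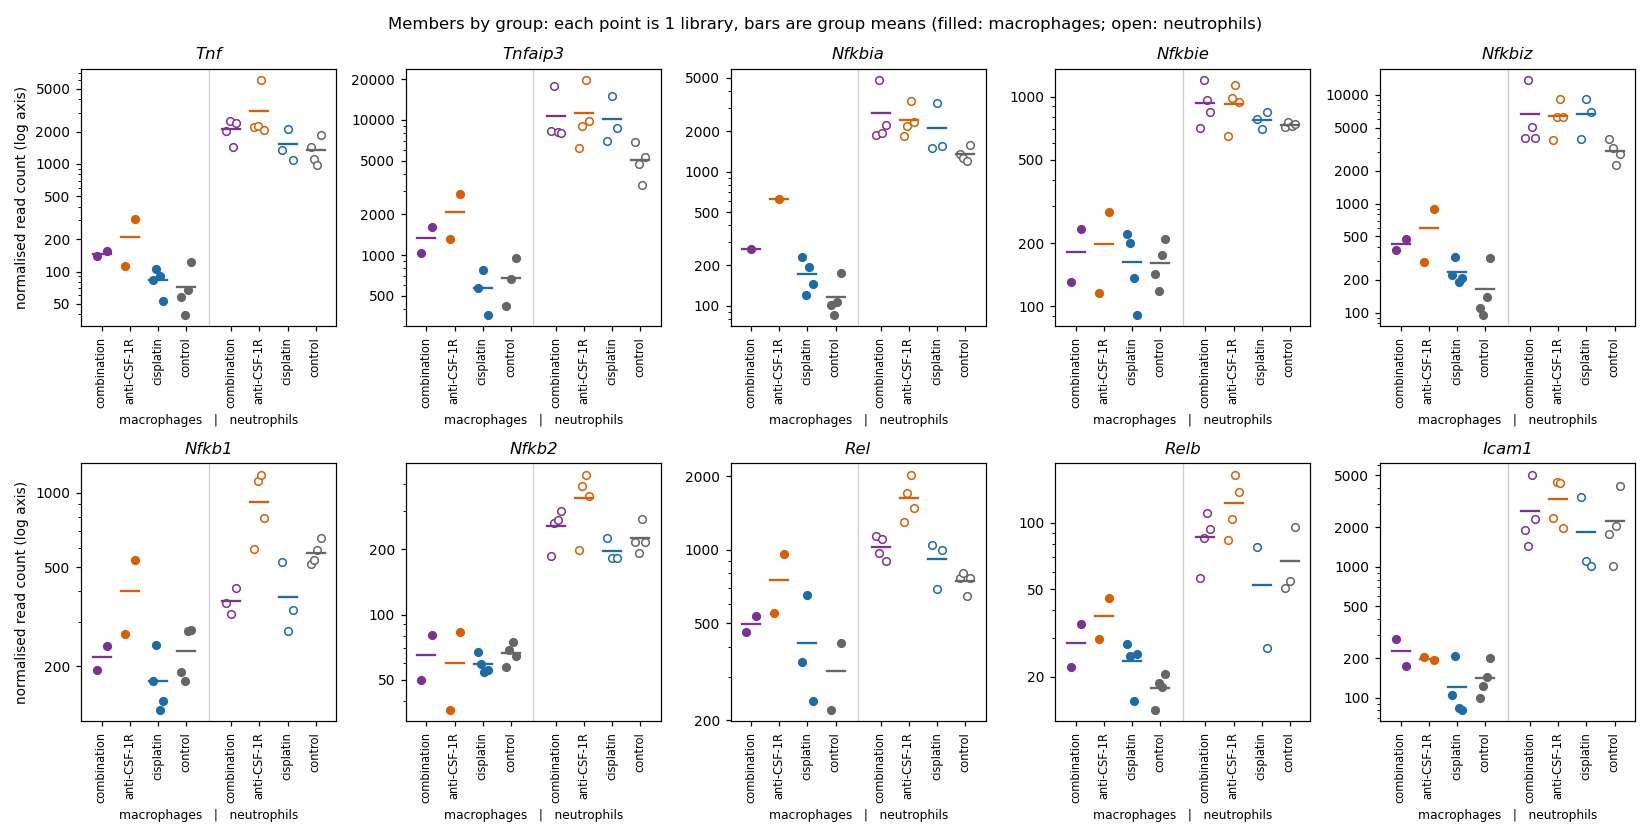
Normalised read count of each gene (log axis) in each library, by group; filled points are macrophages and open points neutrophils, and bars are group means. Tnf lies between 39.7 and 308 in macrophages and between 979 and 5986 in neutrophils, whereas Nfkb1, Rel and Relb overlap between the cell types.

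The other genes of the pathway were counted from lists, and 24.7% of all genes, as given above, is the share called lower in this comparison. In control macrophages over control neutrophils, 13 of 17 other inhibitors were called lower and 0 higher (median log2 fold change -1.63). They included Nfkbid, a nuclear IkB (-3.77 ± 0.42), and Tnip1, a partner of the Tnfaip3 protein (-3.04 ± 0.37). Of 32 other NF-kB targets, 24 were called lower and 3 higher (median -2.05), among them the neutrophil-attracting chemokine Cxcl2 (-4.35 ± 0.58) and Csf1, the ligand of CSF-1R (-3.53 ± 0.42). Of 10 receptors and ligands 4 were called lower and 2 higher, the TNF receptors Tnfrsf1a (-2.21 ± 0.26) and Tnfrsf1b (-1.93 ± 0.24) among those lower. Of 16 adaptors and kinases 6 were called lower and 0 higher, with Birc3, an inhibitor-of-apoptosis protein that itself is an NF-kB target, at -2.66 ± 0.22 and the subunit Rela at -1.40 ± 0.30. Of 14 genes of dissociation stress, which sorting can induce, 5 were called lower in control macrophages and 1 higher, led by Egr1 (-3.63 ± 0.51). The part of dissociation in the differences was not tested.

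With anti-CSF-1R, Nfkbia was the only one of the 10 genes called in macrophages, and it was higher. Of all genes tested 1.31% were called higher in that comparison and 2.84% in either direction. Nfkbia had 625 normalised counts in anti-CSF-1R replicate 2, against 102, 86.0, 106 and 175 in the control macrophages. The value of anti-CSF-1R replicate 1 was left out, since its decimal point was uncertain and it read either 237 or 23.7. The log2 fold change was 2.46 ± 0.41 (limma adjusted p = 0.0114), a 5.49-fold difference that rests on a single anti-CSF-1R library, the one with the mast cell markers. Without that library Nfkbia has no usable anti-CSF-1R value. With the most probable place, 237, used for replicate 1, the log2 fold change was 1.76 (limma adjusted p = 0.0290), and limma-voom on the recovered reads gave 1.73 (adjusted p = 0.0627).

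Of the 10 genes, 9 had a positive fold change and 7 an unadjusted p under 0.05, where 20.6% of all genes did. Their median log2 fold change was 1.14, beside 0.03 over all genes, and 4 stood above the controls without overlap (16% of all genes did). Nfkbiz had 291 and 902 in anti-CSF-1R macrophages, against 111, 95.7, 140.5 and 317 in control macrophages (1.79 ± 0.46, limma adjusted p = 0.0533). Only replicate 2 exceeded the highest control. Tnfaip3 had 1324 and 2847 in anti-CSF-1R macrophages, against 419.9, 672 and 952 in control macrophages (1.59 ± 0.43, limma adjusted p = 0.0693), and its groups did not overlap. Tnf had 112 and 308 in anti-CSF-1R macrophages, against 58.2, 39.7, 66.8 and 122 in control macrophages (1.48 ± 0.43, limma adjusted p = 0.0791). Here too replicate 1 lay within the control range. Rel had 549.7 and 958 in anti-CSF-1R macrophages, against 221 and 417 in control macrophages (1.25 ± 0.46, limma adjusted p = 0.153). Relb had 29.6 and 45.7 in anti-CSF-1R macrophages, against 14.2, 18.7, 17.9 and 20.6 in control macrophages (1.02 ± 0.33, limma adjusted p = 0.102). Both subunits stood above all usable controls. Nfkb1 (0.76 ± 0.32), Icam1 (0.53 ± 0.37), Nfkbie (0.20 ± 0.40) and Nfkb2 (-0.25 ± 0.30) overlapped with the controls and had limma adjusted p-values of 0.194 to 0.823.

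The result leans on anti-CSF-1R replicate 2, which was the highest of the 12 macrophage libraries for 9 of the 10 genes and lay on average 1.20 log2 units above the macrophage mean, whereas replicate 1 lay 0.13 above it. Without replicate 2 no gene was called (0 of 9 with a value, limma), and 7 of the 9 were positive. The log2 fold changes were then 1.04 for Tnfaip3, 0.97 for Nfkbiz, 0.85 for Rel, 0.75 for Tnf and 0.71 for Relb, and -0.84 for Nfkb2, whose limma adjusted p of 0.352 was the smallest of the 9. Leaving out control replicate 4 instead gave 4 calls, Nfkbia, Tnf, Tnfaip3 and Nfkbiz. The share of all genes called in that fit is not given, so the 2.84% of the full fit cannot be set beside these calls. Tnfaip3 was called there at an unadjusted limma p of 0.00114. Leaving out anti-CSF-1R replicate 1 left replicate 2 alone, with log2 fold changes of 2.21 for Tnf, 2.14 for Tnfaip3 and 2.60 for Nfkbiz. Of the mast cell markers that could be tested, Kit and Il1rl1, both were called higher in anti-CSF-1R macrophages. Each had replicate 2 as its only usable anti-CSF-1R library. Also called higher were 2 of 6 monocyte markers (Ly6c2 and Chil3) and 2 of 3 eosinophil markers (Ear1 and Ear2). The 11 neutrophil markers summed to 1048 and 1140 in anti-CSF-1R macrophages, against 255, 386, 1567 and 320 in control macrophages. Only control replicate 3 exceeded the anti-CSF-1R libraries, and the other controls lay well below them. The part of other cells in the difference was not tested.

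The share of all genes called higher with anti-CSF-1R in macrophages was 1.31%, as given above. Beyond the 10 genes, 1 of 17 other inhibitors was called higher in anti-CSF-1R macrophages and 0 lower, with 15 positive and a median log2 fold change of 0.86. It was Ier3, an early response gene, with 1227 ± 772 normalised counts in anti-CSF-1R macrophages (SD, n = 2) and 316 ± 102 in control macrophages (SD, n = 4), a log2 fold change of 1.85 ± 0.40 (limma adjusted p = 0.030); its lower anti-CSF-1R library, at 681, lay above the highest control, at 431. Of 28 other targets 2 were called higher and 0 lower, with 25 positive and a median of 1.08. They were the anti-inflammatory cytokine Il10 (4.01 ± 0.47, limma adjusted p = 0.00327) and the chemokine Cxcl3 (3.28 ± 0.72, limma adjusted p = 0.0476), each with replicate 2, the library with the mast cell markers, as its only usable anti-CSF-1R library. Of 8 receptors and ligands and 16 adaptors and kinases 0 were called, with medians of 0.25 and 0.14. Of 14 dissociation genes 1 was called higher, Egr2 (2.28 ± 0.46, limma adjusted p = 0.0248), with 8 positive and a median of 0.16.

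In neutrophils all 10 genes had a positive fold change with anti-CSF-1R, and limma called 0 of them, where 0.011% of all genes (1 of 9122) were called. Limma-voom also called 0. An unadjusted p under 0.05 was reached by 8 of the 10, beside 8.95% of all genes, and the median log2 fold change was 0.84, beside 0.01. Rel had 1301, 1711, 2022 and 1481 in anti-CSF-1R neutrophils, against 764, 807, 646 and 764 in control neutrophils. The groups were well apart, and the log2 fold change of 1.11 ± 0.21 (unadjusted p = 3.97e-05) missed the threshold with a limma adjusted p of 0.0890. With weights per library the adjusted p was 0.0298. With each library left out in turn the fold change stayed between 1.0 and 1.21 and the adjusted p between 0.0745 and 0.263. Tnf had 2209, 2236, 5986 and 2081 in anti-CSF-1R neutrophils, against 1422, 1113, 979 and 1844 in control neutrophils (1.11 ± 0.33, limma adjusted p = 0.297). Even the lowest treated library exceeded the highest control, and replicate 3 stood far above the rest. Nfkbia had 1827, 2179.7, 3371 and 2338 in anti-CSF-1R neutrophils, against 1361, 1265, 1210.0 and 1574 in control neutrophils (0.81 ± 0.31, limma adjusted p = 0.440), also without overlap. Rel, Tnf and Nfkbia were the 3 genes without overlap (3.58% of all genes stood higher in this way).

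Tnfaip3 had 6183, 9006, 19578 and 9855 in anti-CSF-1R neutrophils, against 6845, 4718, 3277 and 5269 in control neutrophils (1.07 ± 0.38, limma adjusted p = 0.402). Nfkbiz had 3804, 6203, 9129 and 6287 in anti-CSF-1R neutrophils, against 3917, 3239, 2257 and 2869.6 in control neutrophils (1.01 ± 0.38, limma adjusted p = 0.436). For both, anti-CSF-1R replicate 1 lay within the control range and the other three above it. Relb (0.87 ± 0.37), Icam1 (0.64 ± 0.47), Nfkb1 (0.63 ± 0.25), Nfkb2 (0.57 ± 0.24) and Nfkbie (0.31 ± 0.21) overlapped with the controls. Replicate 3 was the highest of all 15 neutrophil libraries for 6 genes and lay 1.0 log2 units above the neutrophil mean on average. All 10 fold changes were positive with any 1 of the 8 libraries left out. Without replicate 3, Tnf was at 0.74 and Rel at 1.0 (limma adjusted p = 0.217). The other lists gave 0 calls in either direction, with 27 of 32 other targets positive (median 0.63), 15 of 17 other inhibitors (0.44), 15 of 16 adaptors and kinases (0.32) and 6 of 10 receptors and ligands (0.29). Of the dissociation genes 4 of 14 were positive (median -0.31). None of the markers of any cell type was called in a treatment comparison of neutrophils (limma), where at most 0.0659% of all genes were. A lack of calls therefore says little about other cells. With anti-CSF-1R the 3 B cell markers tested were positive (median 5.48). Their list summed to 408 in replicate 1, against 4 to 68.5 in control neutrophils. Of monocyte markers 5 of 6 were positive (median 0.53), and of fibroblast markers 1 of 5 (-1.0). The part of other cells was not tested.

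**Figure D3:**
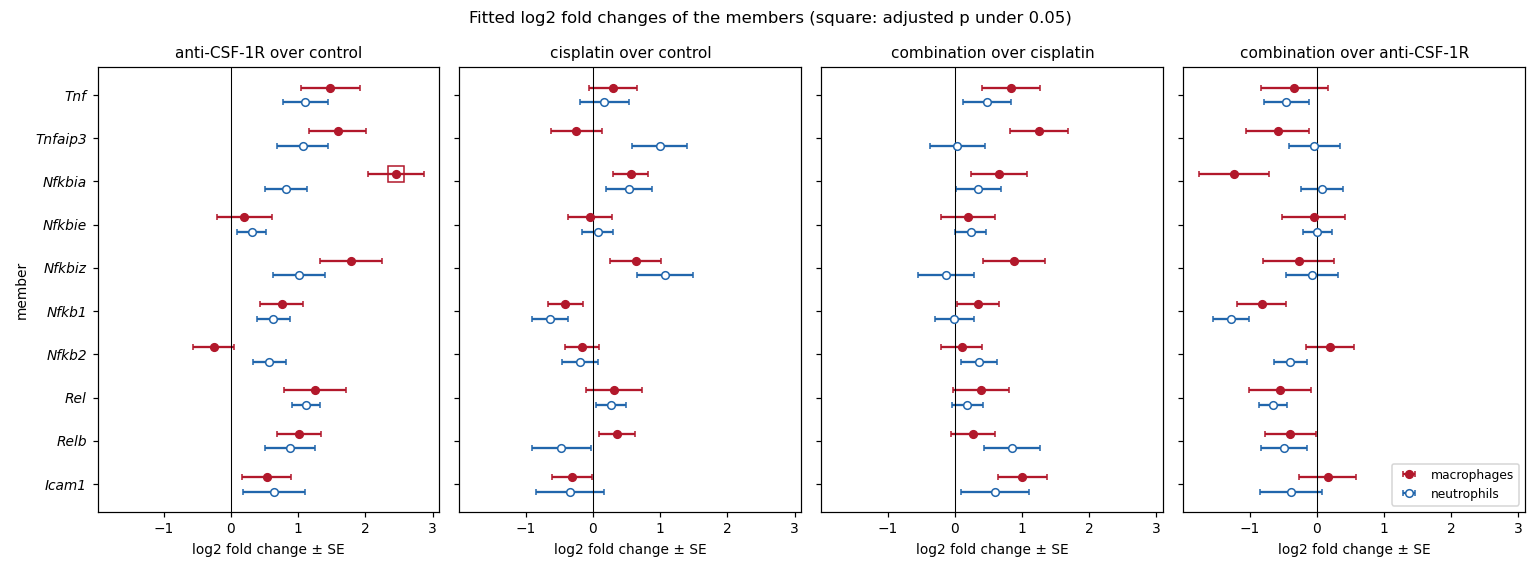
Fitted log2 fold change of each gene with its SE in the treatment comparisons, with macrophages and neutrophils marked apart; a square marks an adjusted p under 0.05 and the vertical line marks 0. The only square is Nfkbia in macrophages with anti-CSF-1R over control, at 2.46, while the neutrophil values of that comparison run between 0.31 and 1.11.

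Whether the antibody acted differently in the cell types was tested directly, and 0 of the 10 genes were called by limma or by limma-voom (0.102% of all genes were called by limma). The largest difference, macrophages minus neutrophils, was that of Nfkbia (1.64 ± 0.57, unadjusted p = 0.00758, limma adjusted p = 0.337). Nfkb2 ran the other way (-0.82 ± 0.39, limma adjusted p = 0.551). These 2 genes had an unadjusted p under 0.05, beside 8.86% of all genes, and the value of Nfkbia rests on its single usable anti-CSF-1R macrophage library. The difference was positive for 7 of the 10 genes. Without the anti-CSF-1R macrophage library that held the mast cell markers it was negative for all 9 genes with a value, with Nfkb2 at -1.41 (limma adjusted p = 0.551) and the others between -0.75 and -0.03.

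**Figure D4:**
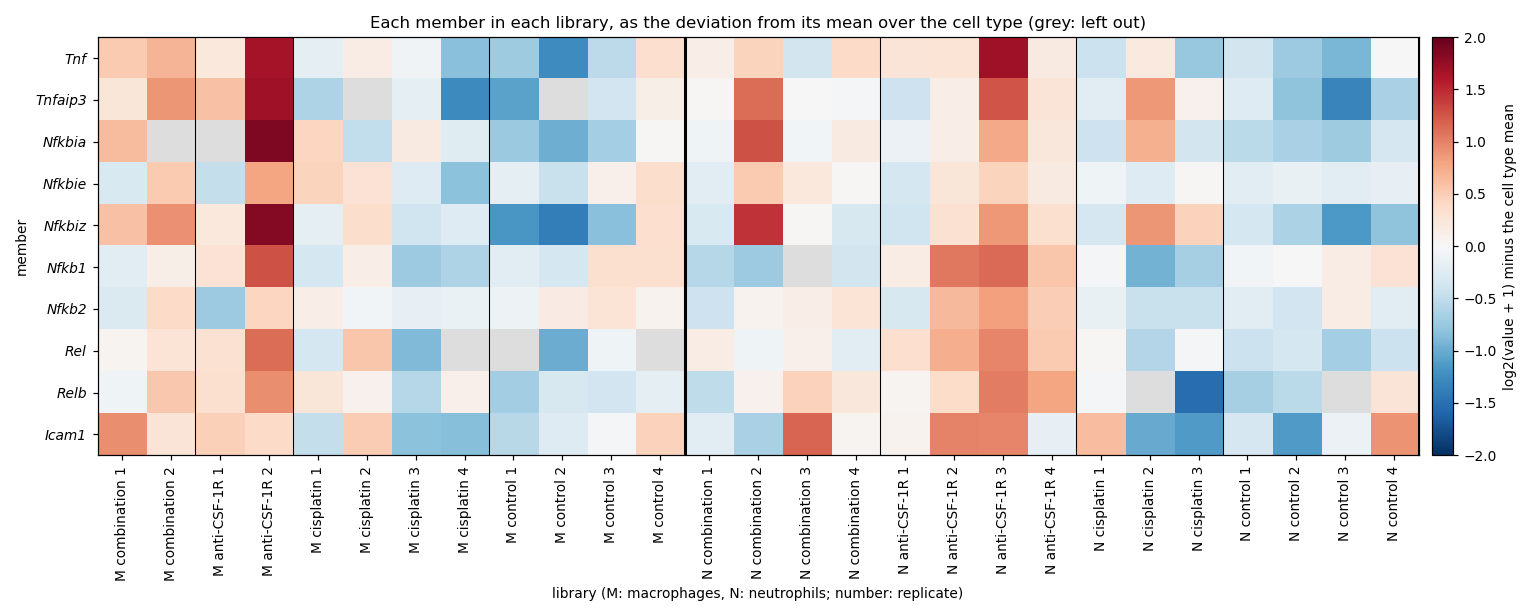
Each gene (rows) in each library (columns) as log2(value + 1) minus the gene's mean over the libraries of that cell type; grey marks values left out. Macrophage anti-CSF-1R replicate 2 is above the mean for all 10 genes, as are neutrophil anti-CSF-1R replicates 2 and 3, and control libraries 1 to 3 of both cell types lie below their mean on average.

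Cisplatin alone moved none of the 10 genes past the threshold. In macrophages limma called 0, limma-voom called 0 and 0.283% of all genes were called; 5 fold changes were positive and 5 negative, and all groups overlapped (3.87% of all genes stood higher without overlap and 3.23% lower). Nfkbia alone had an unadjusted p under 0.05, beside 9.7% of all genes. It had 232, 121, 193 and 145 in cisplatin macrophages, against 102, 86.0, 106 and 175 in control macrophages (0.57 ± 0.26, limma adjusted p = 0.515). The other fold changes lay between -0.41 (Nfkb1) and 0.64 (Nfkbiz).

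In neutrophils cisplatin over control gave 0 calls by limma and by limma-voom (0.0659% of all genes by limma), with 6 positive and 4 negative values. Nfkbiz had 3955, 9224 and 6918 in cisplatin neutrophils, against 3917, 3239, 2257 and 2869.6 in control neutrophils (1.07 ± 0.41, limma adjusted p = 0.550). Tnfaip3 had 7005, 14922 and 8716 in cisplatin neutrophils, against 6845, 4718, 3277 and 5269 in control neutrophils (1.0 ± 0.41, limma adjusted p = 0.580). Both inhibitors stood above the controls without overlap, by a narrow margin in the lowest cisplatin library, as 6.51% of all genes did. The subunit gene Nfkb1 went the other way, with 523, 278 and 335 in cisplatin neutrophils, against 514, 534, 588 and 655 in control neutrophils (-0.64 ± 0.27, limma adjusted p = 0.586). These 3 genes had an unadjusted p under 0.05, beside 7.81% of all genes. The other lists gave 0 calls with cisplatin in either cell type.

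When anti-CSF-1R was added to cisplatin, all 10 genes had a positive fold change in macrophages, and limma called 0 of them (3.01% of all genes were called). Limma-voom called 0, and 2 genes had an unadjusted p under 0.05, beside 19.6% of all genes. Tnfaip3 had 1042 and 1616 in combination macrophages, against 569, 774 and 364 in cisplatin macrophages (1.25 ± 0.43, limma adjusted p = 0.128). Icam1 had 281 and 176 in combination macrophages, against 106, 209, 83.3 and 81.0 in cisplatin macrophages (1.0 ± 0.37, limma adjusted p = 0.147). Icam1 overlapped only through cisplatin replicate 2, without which its adjusted p was 0.0267. Tnf had 139 and 155 in combination macrophages, against 84.2, 107, 91.3 and 53.5 in cisplatin macrophages (0.84 ± 0.43, limma adjusted p = 0.299). Nfkbiz had 379 and 474 in combination macrophages, against 220.1, 322, 189.8 and 209 in cisplatin macrophages (0.88 ± 0.46, limma adjusted p = 0.312). Nfkbia had 265 in the single usable combination library, against 232, 121, 193 and 145 in cisplatin macrophages (0.66 ± 0.41, limma adjusted p = 0.412). Tnfaip3, Tnf, Nfkbiz and Nfkbia stood higher without overlap, as did 17.7% of all genes. Weights per library gave 3 calls, Icam1, Tnfaip3 and Nfkbiz (limma adjusted p = 0.00898, 0.0211 and 0.0441). The 3.01% of all genes belongs to the fit without weights. The share of all genes called with weights is not given, so these 3 calls cannot be set beside it. Nfkbiz was called there at an unadjusted limma p of 0.00708. The remaining 5 genes, Rel, Nfkb1, Relb, Nfkbie and Nfkb2, lay between 0.10 and 0.39. Without combination replicate 2, 7 of the 10 genes were positive, and Nfkbie, Nfkb2 and Relb were between -0.24 and -0.05.

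Elsewhere in the pathway the macrophage comparison of the combination with cisplatin gave a few calls, beside 3.01% of all genes called in either direction. Of 7 receptors and ligands 2 were called higher, the ligand Tnfsf14 (1.94 ± 0.42, limma adjusted p = 0.0308) and the receptor Cd40 (2.52 ± 0.57, limma adjusted p = 0.0426). Of 17 other inhibitors 1 was called higher, Tax1bp1, an adaptor for the Tnfaip3 protein (1.02 ± 0.26, limma adjusted p = 0.0490). Of 27 other targets 1 was called higher, the chemokine Ccl3, with 625 ± 244 in combination macrophages (SD, n = 2) and 134 ± 44.8 in cisplatin macrophages (SD, n = 4; log2 fold change 2.23 ± 0.38, limma adjusted p = 0.0123). Of 16 adaptors and kinases 0 were called, and none of these lists held a gene called lower. Markers of other cells moved in the same comparison: 4 of 7 neutrophil markers tested were called higher (S100a8, S100a9, Retnlg and Mmp8), the 11 in the table summing to 1357 and 1508 in combination macrophages, against 196 to 392 in cisplatin macrophages. Of 3 eosinophil markers 2 were called higher (Ear1 and Ear2, each with a single usable combination library). Of 5 monocyte markers 1 was called higher, with a median log2 fold change of 2.06 over the 5. Of 11 macrophage markers 3 were called lower, the receptor Csf1r itself (-1.02 ± 0.23) and the complement genes C1qb (-1.14 ± 0.29) and C1qc (-1.65 ± 0.27). Ngp was listed at the lowest value of the table in all cisplatin macrophages and Camp in both combination libraries. Of 14 dissociation genes 2 were called higher (Jun 1.70 ± 0.32 and Egr2 1.89 ± 0.46), and 13 were positive. The median log2 fold change of the 14 was 0.89, more than the 0.52 of the 10 genes and the -0.01 over all genes. The part of other cells or of dissociation in the differences was not tested.

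In neutrophils the combination over cisplatin gave 0 calls by limma and by limma-voom (0.022% of all genes by limma), 0 unadjusted p under 0.05 (8.76% of all genes) and 0 groups without overlap (6.39% of all genes stood higher in that way and 5.09% lower). Relb had the largest fitted difference, with 56.1, 85.2, 111 and 93.4 in combination neutrophils, against 77.7 and 27.1 in the 2 usable cisplatin libraries (0.85 ± 0.42, limma adjusted p = 0.590). Leaving out cisplatin replicate 1 gave 1.60, and leaving out cisplatin replicate 3 gave 0.11, less than the 0.29 of Icam1 in that fit. The difference between the cell types in this effect was not past the threshold for any of the 10 genes by limma or limma-voom (0.0513% of all genes by limma), and 0 had an unadjusted p under 0.05. It was largest for Tnfaip3 (1.22 ± 0.64, limma adjusted p = 0.524).

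Set against anti-CSF-1R alone, the combination was lower for 8 of 10 genes in each cell type, with 0 calls by limma or limma-voom (0% of all genes were called by limma in either cell type). With a library left out, 6 to 10 of the 10 were lower in neutrophils. In neutrophils Nfkb1 had 359.6, 323 and 413 in the 3 usable combination libraries, against 592, 1112, 1177 and 788 under anti-CSF-1R (-1.28 ± 0.27, unadjusted p = 0.000168, limma adjusted p = 0.274). Rel had 1139, 968, 1107 and 896 in combination neutrophils, against 1301, 1711, 2022 and 1481 under anti-CSF-1R (-0.65 ± 0.21, limma adjusted p = 0.321). Both subunit genes lay below anti-CSF-1R without overlap (3% of all genes did), and they alone had an unadjusted p under 0.05, beside 9.72% of all genes. The fourth value of Nfkb1, from combination replicate 3, was left out as uncertain; it read 833 at its most probable place, within the anti-CSF-1R range. In an earlier analysis of these data 2 neutrophil libraries stood apart, combination replicate 2 and cisplatin replicate 2, and without them the fold changes were -1.20 for Nfkb1 (limma adjusted p = 0.423) and -0.62 for Rel (0.464).

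In macrophages the combination over anti-CSF-1R was -1.23 ± 0.52 for Nfkbia (265 against 625 normalised counts, 1 usable library each, limma adjusted p = 0.542). Nfkb1 had 192 and 241 in combination macrophages, against 270.2 and 536 in anti-CSF-1R macrophages (-0.82 ± 0.37, limma adjusted p = 0.554). Nfkbia, Nfkb1 and Rel lay lower without overlap, as 24.8% of all genes did, and Nfkbia and Nfkb1 had an unadjusted p under 0.05, beside 8.82% of all genes. Without the anti-CSF-1R library that held the mast cell markers, 5 of the 9 genes with a value were positive (Nfkb2 0.78, Nfkbie 0.59, Nfkbiz 0.54, Tnf 0.39 and Icam1 0.12).

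The effect of anti-CSF-1R with cisplatin minus that without was negative for 8 of 10 genes in macrophages and for all 10 in neutrophils. The macrophage count rests on the library that held the mast cell markers: without it 3 of the 9 genes with a value were negative and 6 positive, with Nfkb2 at 0.94, Nfkbie at 0.63, Icam1 at 0.43, Tnfaip3 at 0.22, Tnf at 0.09 and Nfkb1 at 0.08. In neutrophils 7 to 10 genes were negative with a library left out. Limma and limma-voom called 0 in either cell type (0.0112% of all genes in macrophages and 0% in neutrophils by limma), and 1 gene in each had an unadjusted p under 0.05, beside 8.25% of all genes in macrophages and 5.51% in neutrophils. In macrophages it was Nfkbia (-1.80 ± 0.58, unadjusted p = 0.0091, limma adjusted p = 0.470), and in neutrophils Rel (-0.92 ± 0.31, unadjusted p = 0.0072, limma adjusted p = 0.863). The comparisons with and without cisplatin share no library, whereas the combination set against cisplatin and against anti-CSF-1R shares the combination libraries.

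By group means, neutrophils had the highest Tnf under anti-CSF-1R (3128 ± 1906, SD, n = 4), then the combination (2092 ± 487, n = 4), cisplatin (1523 ± 534, n = 3) and control (1339 ± 384, n = 4), with neighbours in that order overlapping. Replicate 3 (5986) raised the anti-CSF-1R mean of neutrophils, and the medians were close, 2223 under anti-CSF-1R and 2213 under the combination. In macrophages Tnf ran in the same order, 210.0 ± 139 (n = 2), 147 ± 11.3 (n = 2), 83.9 ± 22.4 (n = 4) and 71.6 ± 35.2 (n = 4), and only the combination and cisplatin were apart. The first place of anti-CSF-1R there rests on replicate 2 (308), since replicate 1 (112) lay below both combination libraries (139 and 155). Rel in neutrophils was highest under anti-CSF-1R (1629 ± 311), apart from the combination (1028 ± 115), which overlapped with cisplatin (913 ± 194), and cisplatin with control (745 ± 69.4). Nfkb1 in neutrophils was also highest under anti-CSF-1R (917 ± 276), overlapping with control (573 ± 63.4), while control stood apart from the 3 usable values of the combination (365 ± 44.8; the left-out value, 833 at its most probable place, would lie above control) and the combination overlapped with cisplatin (379 ± 128). Nfkb1 thus had its control group second, and Tnf and Rel had theirs last.

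The genes most like 5 of the members were found by Pearson's r of log2 values over libraries, each library taken as its deviation from the mean of its cell type, among 3903 genes well above the low end in both cell types. The libraries share depth and treatment, so these are descriptions without a p. Nfkbia went most closely with Ccrl2 (r = 0.883, 24 libraries), Cxcl2 (0.872, 25 libraries) and Ier3 (0.868, 24 libraries). Ccrl2, an atypical chemokine receptor, also led for Tnf (0.810, 26 libraries), ahead of Bcl2a1b (0.795) and Odc1 (0.788). Nfkbiz went with Samsn1 (0.919, 26 libraries), Ccrl2 (0.877) and Ptgs2 (0.874), the inducible prostaglandin synthase. Rel went with Akap13 (0.819, 24 libraries), Fbxo11 (0.815) and Skil (0.810), and Icam1 with Dapp1 (0.821, 25 libraries), Ctsz (0.807) and Ints6 (0.798). Cxcl2, Ier3, Bcl2a1b and Ptgs2 stood on the pathway lists, and the other genes did not.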

How the data were processed

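RNA of sorted cells (10 ng of total RNA, amplified with the Ovation RNA-seq V2 kit) was sequenced on a HiSeq 1500, per the labels' protocols. The build was mm10, and tools listed without roles were DESeq2, R 3.3.1, Partek 6.6, TopHat2 2.0.11 and CASAVA 1.8, per the submitters' processing notes. The authors deposited a single table of normalised read counts (a signal in which the authors divided counts by size factors), 9996 genes by 27 libraries. Many of its values had lost their decimal point. Values of 1000 or more came out as whole reads within 0.0246 reads, which gave each library's value per read. Of 269892 values, 67.1% had several possible places; the most probable under a negative binomial model of each gene and group was kept where its probability was at least 0.95, and 5.65% were left out. An expected 0.154% of kept values are wrong. The lowest listed value is 1, held by 9533 values.

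Groups came from the sample titles, which number no replicates. Replicates correlated at 0.906 to 0.964 and 0 pairs of libraries were identical. limma 3.58.1 (R 4.3.3; trended empirical Bayes, two-sided) was run on log2(value + 1), fitting a cell type's 4 groups together, or all 8 groups for comparisons across cell types. Genes needed a value of 10 or more in 2 or more libraries, and p-values were adjusted by Benjamini-Hochberg over all genes, with a threshold of 0.05. Fold changes on this scale understate changes of low genes. The steps were tested on simulated data. Alternatives were a pseudocount of 10, no filter, 2 other scalings, 2 other treatments of the decimal point, limma-voom on recovered reads, weights per library, 8 groups in 1 fit, an adjusted p of 0.1 and libraries left out. Python 3.11.15 and matplotlib 3.10.9 were used besides. The 10 genes and all lists were chosen with earlier results of these data known. All 10 genes are named; from other lists up to 4 called genes with the smallest p are named, and the 3 genes most like 5 of the members. Normalised counts are not per length, so levels are not compared between genes. Gene positions are those of GENCODE on GRCm38, and promoters are RefSeq's on GRCm38.p6.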

Additional observations from a re-analysis of the deposited data

Results flagged for a closer look

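Within groups of 4 libraries, 4 values stood far from the rest by Dixon's gap, the distance to the nearest other library as a share of the group's range, past the 95% critical value. Of 44 groups tested, chance gives about 2.2, or about 1 in 20. Tnf had 5986 normalised counts in anti-CSF-1R neutrophil replicate 3, against 2081 to 2236 in the other anti-CSF-1R neutrophils (gap 0.960). In combination neutrophil replicate 2, Tnfaip3 had 17835, against 8028 to 8326 in the other combination neutrophils (gap 0.970). The same library had 4789 of Nfkbia, against 1883 to 2242 (gap 0.877), and 13584 of Nfkbiz, against 4009 to 5084 (gap 0.888). Its 14 dissociation genes summed to 25446, the highest of the 27 libraries, and the lowest sum of the combination neutrophils was 9325. Its neutrophil markers (101738) and monocyte markers (8899) also had the highest sums of the 27 libraries. The part of dissociation or of the cells sorted was not tested.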

How the results depend on the processing

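The count of the 10 genes called changed as follows. For anti-CSF-1R over control in macrophages it was 1, and 4 at an adjusted p of 0.1, 0 with limma-voom, 2 with 8 groups in 1 fit (Nfkbiz added) and 0 to 4 with a library left out. For the combination over cisplatin in macrophages it was 0, and 3 with weights per library and 0 to 1 with a library left out. For anti-CSF-1R over control in neutrophils it was 0, and 1 at an adjusted p of 0.1 and with weights per library, Rel in both. The share of all genes called with weights per library or with a library left out is not given for any comparison. Macrophages over neutrophils gave 9 to 10 calls with a library left out in control, 8 to 10 under anti-CSF-1R, 9 to 10 under cisplatin and 6 to 9 under the combination. Where a left-out library took the value of a gene with few usable values, fewer genes were tested. For the other comparisons the count stayed 0 under all alternatives run. Centring libraries on the median moved the median of all genes, macrophages over neutrophils under cisplatin, to 0.25, against 0.13. No called gene changed direction. No paired analysis was possible because the labels number no replicates. With 2 libraries of macrophages in each anti-CSF-1R arm, each value weighs much; a left-out library leaves a lone sample, assumed to vary like the other groups. The causes of these shifts were not tested.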
